A study of Mus musculus with 4 samples.

Results

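The genes described here encode the enzymes and transporters that build, sulfate and trim glycosaminoglycans, the sugar chains of proteoglycans. They were chosen by name, and all 42 were found among the 24421 genes listed. The 4 RNA-seq libraries came from superficial-zone articular cartilage, the surface layer of the joint, taken from the medial femoral condyle of C57BL/6J mice 8 weeks after knee surgery. From either mouse, M04 or M05, came a sham knee and a DMM knee; in DMM surgery the medial meniscus is destabilised, which leads to osteoarthritis. In the sample labels M04 and M05 are both wild type, but the design text of the series gives M05 as KO and names no gene, so M05 and M04 are compared as 2 animals and not as genotypes. Each group therefore holds 2 libraries, with 1 animal behind each pair, and the labels give neither age nor sex. Most values below come in the order M04, then M05, for each kind of knee.

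Most glycosaminoglycan chains start on a serine of a core protein, to which a linker of xylose, galactose and glucuronic acid is added. Chondroitin sulfate grows from this linker by alternating N-acetylgalactosamine and glucuronic acid, and heparan sulfate by alternating N-acetylglucosamine and glucuronic acid. Sulfotransferases then place sulfate from the donor PAPS on set carbons of the sugars. In cartilage the densely sulfated chondroitin chains of aggrecan bind water and let the tissue resist compression, while heparan sulfate around the cells binds growth factors.

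The total count was between 12712425 and 19336628 per library, and the 42 genes together held 10005 to 13315 of these counts. Single genes had between 3 counts (Dsel in the DMM library of M05) and 1849 counts (Chst12 in the sham library of M05). Markers of blood and marrow cells took a large share of the counts: the 6 erythroid markers measured, which include 3 haemoglobin chains, made up 13.4% to 18.1% of the counts and 8 granulocyte markers 4.33% to 5.99%. The 15 cartilage markers, among them Col2a1, Acan and Comp, were all detected and made up 0.638% (sham) and 0.796% (DMM) in M04, but 0.151% (sham) and 0.520% (DMM) in M05. The sham library of M05 was thus the one with the lowest cartilage share. In such bulk RNA, fewer cells of a type and less RNA per cell cannot be told apart.

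Levels across genes were compared on the FPKM scale, which the authors corrected for transcript length. Of the 42 genes, 9 had a mean of at least 10 FPKM over the 4 libraries, 27 had 1 to 10 FPKM and 6 had less than 1 FPKM. Chst12, one of the enzymes that sulfate carbon 4 of chondroitin, had by far the highest level, with 80.2 and 67.8 FPKM in the sham knees and 73.7 and 91.0 FPKM in the DMM knees. Its lowest library stood above the highest library of every other member. It alone made up 22.8% to 28.2% of the summed FPKM of the 42 genes. The next in order were the PAPS transporter Slc35b2 (mean 20.9 FPKM), B3gat3, which adds the last sugar of the linker (19.9), Hs6st1, which sulfates carbon 6 of glucosamine in heparan sulfate (18.6), and the UDP-glucose maker Ugp2 (17.8). The libraries of these 4 genes overlapped, with ranges of 16.5 to 23.7, 17.2 to 25.1, 15.4 to 25.6 and 14.6 to 20.9 FPKM in the same order.

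At the low end were Dsel (mean 0.135 FPKM), Chsy3 (0.278), Slc35d1 (0.456), Chst7 (0.826), Glce (0.832) and the sulfate transporter Slc26a2 (0.897). In 4 members the lowest library had fewer than 20 counts, so their ratios carry a large counting error. In 22 of the 42 genes the highest library was at most 1.5 times the lowest on the FPKM scale.

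**Figure D1:**
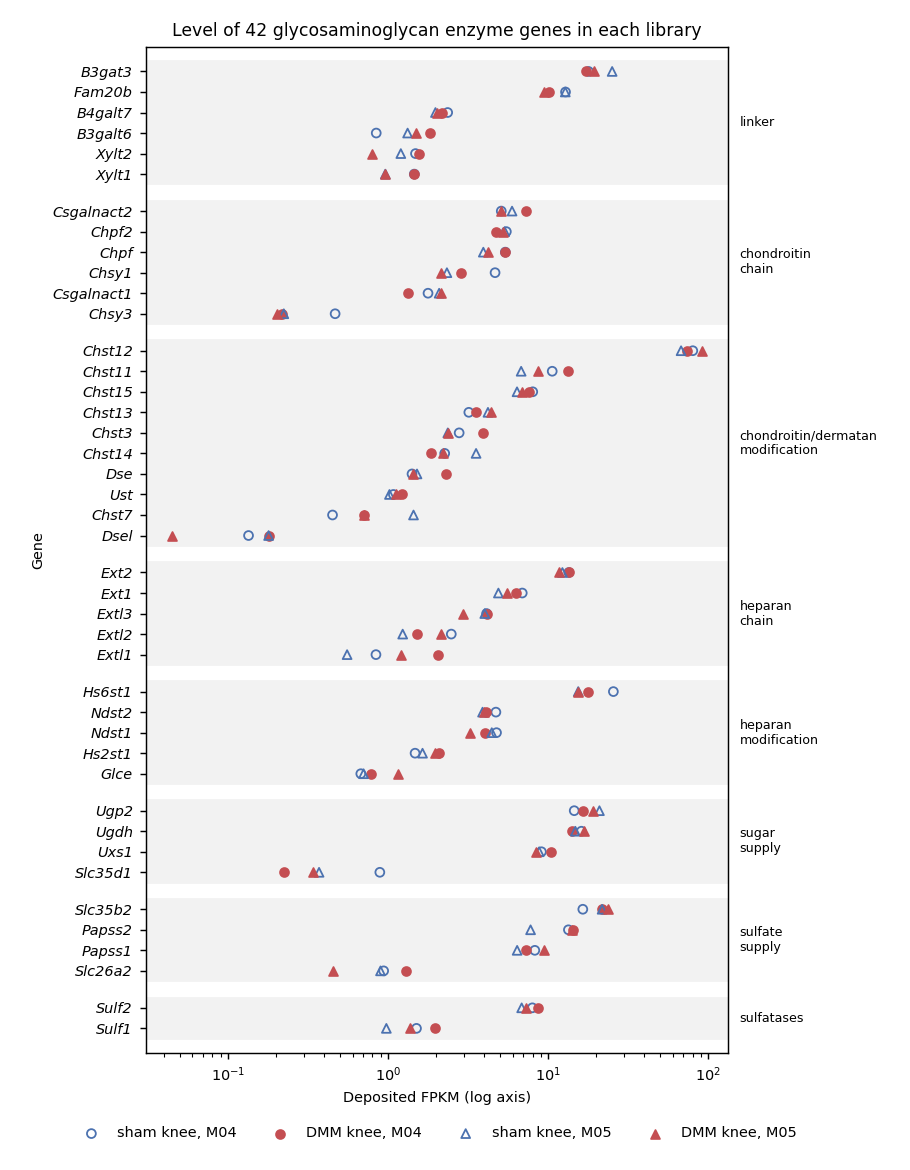
Deposited FPKM of each of the 42 genes (log axis) in the 4 libraries, grouped by role; circles are M04, triangles M05, open symbols sham and filled symbols DMM knees. Chst12 stands between 67.8 and 91.0 FPKM, above all other members, and the 4 symbols of most genes lie close together.

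No member passed the test between DMM and sham knees. In the fit across 13103 genes with the mouse as a block, 0 of 42 members had an adjusted p under 0.05 by edgeR's quasi-likelihood test, where 0.649% of all genes did (0.633% as higher and 0.0153% as lower). DESeq2, edgeR without the mouse term and limma on the FPKM values also gave 0. At an unadjusted p under 0.05 there were 4 members, or 9.52%, against 5.2% of all genes: Extl1, Papss2, Fam20b and Chst11. Only 1 of them, Extl1, remained in DESeq2 (194 of 13103 genes in all) and in edgeR without the mouse term (322 of 13103). The same 1 remained in the 2 limma fits on the FPKM values (692 and 740 of 16401 genes). The median log2 fold change of the members was 0.02, beside -0.01 over all genes tested, with 22 members above and 20 below 0.

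A missed threshold does not show that the levels were equal. The fitted 95% intervals of the log2 fold change reached 0.30 to 1.80 to either side of the estimate, with a median of 0.48. In 30 of 42 members the interval stayed within 1 on the log2 scale to either side of 0, and in 8 it stayed within 0.5. The fit leaves 1 residual degree of freedom, and for most genes the spread behind these intervals came from the trend across genes and not from the difference between the mice.

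Direction was mixed between the animals too. The DMM to sham ratio was above 0 in both mice for 11 members (26.2%, against 23.2% of all genes) and below 0 in both for 11 (26.2%, against 23.8%). By counts normalised to library size, both DMM libraries were above both sham libraries in 7 members (16.7%, against 13.2% of all genes). Both were below in 6 (14.3%, against 12.3%). These shares were near those of all genes. A log2 ratio of 0.5 or more in both mice was seen in a single member, Extl1 (2.38%, against 2.96% of all genes).

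**Figure D2:**
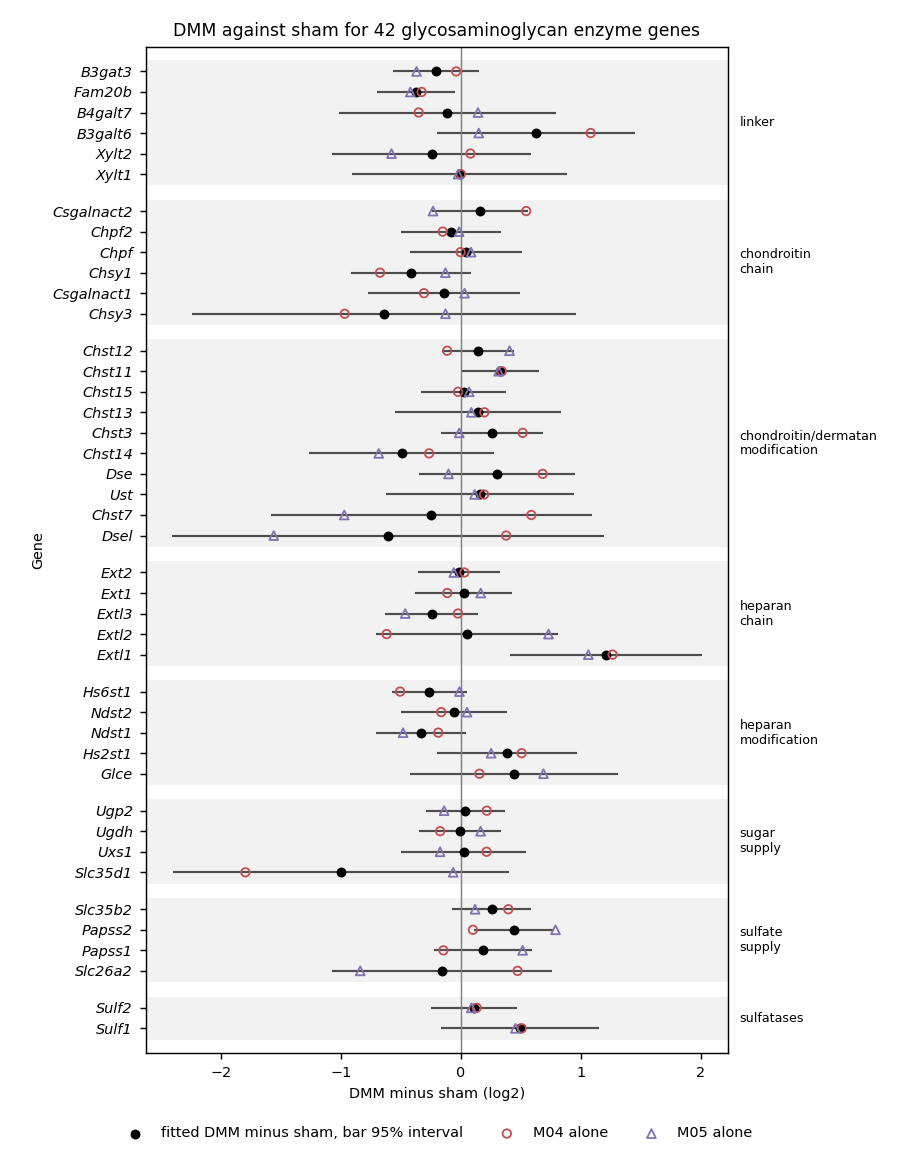
Fitted DMM minus sham difference (log2, black points) with its 95% interval for each of the 42 genes, and the ratio in M04 (circles) and in M05 (triangles) alone, grouped by role. Extl1 has the highest value, at 1.21, and Slc35d1 the lowest, at -1.003, with a wide interval.

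The largest difference was that of Extl1, a member of the exostosin family known as a glycosyltransferase of heparan sulfate. Its normalised CPM (counts scaled to library size after TMM normalisation, used from here on for single genes) was 3.26 and 2.17 in the sham knees and 8.02 and 4.68 in the DMM knees. Both DMM libraries were above both sham libraries. The log2 fold change was 1.21 (SE 0.41, 95% interval 0.41 to 2.01, adjusted p = 0.274), with log2 ratios of 1.26 (M04) and 1.06 (M05). When 1 library at a time was left out, in fits without the mouse term, it stood between 0.80 and 1.57. The gene rests on 37 to 120 counts per library. Of 7 fibroblast markers, 5 had fold changes above 0 and 2 below 0, and 3 passed as higher. Their summed level was 146 and 114 CPM in the sham and 483 and 231 CPM in the DMM knees. Col3a1 made up most of it in the DMM knees (394 and 150.0 CPM) and a smaller part in the sham knees (75.6 and 43.9 CPM). In the sham library of M05, Pi16 stood above Col3a1, at 45.2 CPM. Pdgfra and Pi16 were lower in the DMM knee of both mice. The part of the fibroblast markers in the value of Extl1 was not tested.

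The other 4 heparan chain genes had fold changes from -0.24 to 0.05, and none passed. Ext1 and Ext2, which together form the heparan polymerase, had log2 fold changes of 0.02 and -0.02. Ext2 had 35.9 and 32.8 CPM in the sham and 36.6 and 31.4 CPM in the DMM libraries, of M04 and M05 in turn, so that the knees of 1 mouse were nearer to each other than the mice were. Extl3, which starts the heparan chain, had a fold change of -0.24 (95% interval -0.63 to 0.14). Extl2 had ratios of opposite sign, -0.62 in M04 and 0.73 in M05, and a fitted value of 0.05.

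Among the enzymes that modify heparan sulfate, 5 members in all, none passed. Ndst1, which swaps the acetyl group of glucosamine for sulfate, had 27.9 and 26.3 CPM in the sham and 24.4 and 18.8 CPM in the DMM libraries, M04 first. The DMM libraries were the lower ones in both mice, and the fold change was -0.34 (SE 0.19, adjusted p = 1.0). It was -0.15 without the DMM library of M05 and -0.52 without that of M04. Hs6st1 had 89.3 and 54.2 CPM in the sham and 62.8 and 53.8 CPM in the DMM libraries, with a fold change of -0.26. The sham library of M04 was the high one, and the ratio was -0.51 in M04 and -0.01 in M05. Without that library the value was 0.10. Hs2st1, which sulfates carbon 2 of the uronic acid, stood at 0.38 (95% interval -0.20 to 0.97), Glce, the epimerase that makes iduronic acid, at 0.44 (-0.43 to 1.31) and Ndst2 at -0.06.

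Of the 6 linker enzymes, 5 had fold changes below 0 and none passed. Fam20b, the kinase that phosphorylates the linker xylose, had 52.1 and 52.2 CPM in the sham and 41.5 and 38.9 CPM in the DMM libraries, M04 first. The sham knees of the mice were nearly equal and both DMM knees lay below them. The fold change was -0.38 (SE 0.17, 95% interval -0.70 to -0.05, adjusted p = 0.748), and it stood between -0.42 and -0.33 when 1 library was left out. B3gat3 had 24.9 and 35.1 CPM in the sham and 24.2 and 27.1 CPM in the DMM libraries. The sham library of M05 was the high one, and the fold change was -0.21. B3galt6, which adds the second galactose, was the linker gene with the highest value, at 0.63 (95% interval -0.20 to 1.45). It had 2.52 and 3.99 CPM in the sham and 5.48 and 4.43 CPM in the DMM libraries, with the sham library of M04 the low one. The value was 0.32 without that library and 0.98 without the sham library of M05. The xylosyltransferases that start all these chains stood at -0.01 (Xylt1) and -0.24 (Xylt2), and the galactosyltransferase B4galt7 at -0.11.

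The 6 genes of chondroitin chain synthesis had fold changes from -0.64 (Chsy3, on 9 to 23 counts per library) to 0.16 (Csgalnact2), and none passed. Chsy1, a chondroitin synthase, had 18.4 and 9.27 CPM in the sham and 11.5 and 8.46 CPM in the DMM libraries, M04 first. The sham library of M04 again stood apart, and the fold change of -0.42 (SE 0.26, adjusted p = 1.0) became 0.11 without it. Csgalnact2, one of the enzymes that start the chondroitin chain, had 17.5 and 20.6 CPM in the sham and 25.5 and 17.5 CPM in the DMM libraries. The high library was the DMM one of M04, with log2 ratios of 0.54 (M04) and -0.23 (M05). Csgalnact1 stood at -0.14 and the polymerising factors Chpf and Chpf2 at 0.04 and -0.08.

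The 10 genes that sulfate and epimerise chondroitin and dermatan chains held the highest level. Chst11, like Chst12 a sulfotransferase for carbon 4, had 56.4 and 36.9 CPM in the sham and 71.4 and 45.9 CPM in the DMM libraries, M04 first. The DMM library was above the sham library in each mouse, by 0.34 in M04 and 0.31 in M05, but the groups overlapped because both libraries of M05 were below both of M04. The fold change was 0.33 (SE 0.16, 95% interval 0.01 to 0.65, adjusted p = 0.92). Chst12 had 127 and 108 CPM in the sham and 118 and 144 CPM in the DMM libraries. The groups overlapped, and its fold change was 0.15 (95% interval -0.16 to 0.45), with log2 ratios of -0.12 (M04) and 0.40 (M05). The epimerase Dse, which turns glucuronic into iduronic acid and so makes dermatan sulfate, had ratios of 0.68 in M04 and -0.10 in M05, and a fitted value of 0.30.

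The others of this set did not pass either. Chst3, which sulfates carbon 6, stood at 0.26 (95% interval -0.17 to 0.69), Chst13 at 0.14, Ust at 0.16 and Chst15, which adds a second sulfate to sugars already sulfated on carbon 4, at 0.02. Chst14, the dermatan sulfotransferase for carbon 4, stood at -0.49 (-1.26 to 0.28). Chst7 and the epimerase Dsel, both with few counts, stood at -0.25 and -0.61, with ratios that differed in sign between the animals.

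The make-up of the 8 chondroitin and dermatan sulfotransferases was compared on the FPKM scale. Chst11, Chst12 and Chst13, which sulfate carbon 4 of chondroitin, together made up 86.6% and 84.2% of their summed FPKM in the sham and 85.5% and 88.7% in the DMM libraries, M04 first. Chst3 and Chst7, which sulfate carbon 6, made up 2.98% and 4.07% in the sham and 4.40% and 2.61% in the DMM libraries. The ratio of the first set to the second was 29.1 and 20.7 in the sham and 19.4 and 33.9 in the DMM libraries. It was thus lower in the DMM knee of M04 and higher in that of M05. Without Chst12, which sets most of this ratio, it was 4.27 (sham) and 3.61 (DMM) in M04 and 2.89 (sham) and 4.24 (DMM) in M05, with the same order. These are ratios of transcripts in mixed tissue, and no enzyme activity was measured.

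Sulfate supply rests on 4 members, of which 3 had fold changes above 0. Papss2, the PAPS synthase whose loss causes a skeletal dysplasia in humans, had 45.5 and 27.3 CPM in the sham and 48.7 and 47.3 CPM in the DMM libraries, M04 first. The sham library of M05 was the low one and the other 3 were close to each other. The fold change was 0.44 (SE 0.17, 95% interval 0.11 to 0.77, adjusted p = 0.497); the ratio was 0.10 for M04 and 0.79 for M05. The fit without the low library gave 0.08. That library also had the lowest summed level of the 15 cartilage markers, at 1711 CPM against 5424 to 7061 CPM in the other 3, and the part of this difference in the value of Papss2 was not tested. The other PAPS synthase, Papss1, had 19.8 and 15.6 CPM in the sham and 17.9 and 22.3 CPM in the DMM libraries. Its groups overlapped, with log2 ratios of -0.15 (M04) and 0.51 (M05). Its fitted value of 0.19 was 0.01 without the DMM library of M05.

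Slc35b2, which carries PAPS into the Golgi, had 33.2 and 43.5 CPM in the sham and 43.7 and 47.2 CPM in the DMM libraries. Both DMM libraries were above both sham libraries, by a small margin. On the FPKM scale this order was lost, with the DMM library of M04 at 21.766 and the sham library of M05 at 21.770. The fold change was 0.26 (SE 0.17, adjusted p = 1.0). It was 0.06 with the M04 sham library left out and 0.45 with the M05 one left out. Slc26a2, which brings sulfate into the cell, stood at -0.16 (95% interval -1.07 to 0.76) on 22 to 73 counts per library.

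None of the 4 genes of sugar nucleotide supply passed, and 3 of them had fold changes within 0.05 of 0. Ugp2, which makes UDP-glucose, had 35.9 and 51.8 CPM in the sham and 41.7 and 46.97 CPM in the DMM libraries and a fold change of 0.04 (95% interval -0.29 to 0.36). Ugdh, which oxidises UDP-glucose to UDP-glucuronic acid, had 36.1 and 33.2 CPM in the sham and 32.0 and 37.2 CPM in the DMM libraries and a fold change of -0.005 (-0.35 to 0.34). In both genes the knees differed in opposite directions in the mice. Uxs1, which makes UDP-xylose, stood at 0.02, and Slc35d1, a sugar nucleotide transporter of the ER, at -1.003 (-2.40 to 0.40) on between 10 and 36 counts per library.

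The sulfatases Sulf1 and Sulf2, which remove sulfate from carbon 6 of heparan chains outside the cell, were higher in the DMM library of each mouse without passing. Sulf1 had 6.59 and 4.34 CPM in the sham and 9.43 and 5.99 CPM in the DMM libraries, and a fold change of 0.49 (SE 0.33, 95% interval -0.16 to 1.15). Its ratios were 0.51 in M04 and 0.45 in M05, and the groups overlapped. With 1 library left out the value ran from 0.14 (without the DMM library of M04) to 0.83 (without the sham library of M04). Sulf2 stood at 0.11 (-0.25 to 0.47).

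**Figure D3:**
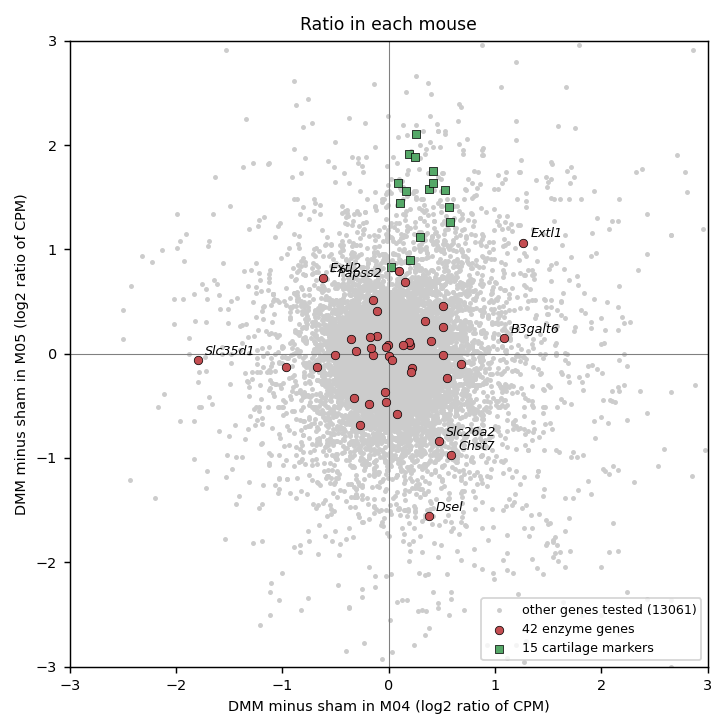
DMM minus sham log2 ratio in M05 against that in M04 for the 42 enzyme genes (red), 15 cartilage markers (green squares) and the 13061 other genes tested (grey; 39 of these lie outside the axes, which end at 3). Extl1 lies apart at 1.26 and 1.06, and the cartilage markers lie above 0 in both mice, higher in M05.

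The summed level of the enzymes varied less between libraries than that of the cartilage markers. Summed over the 42 genes, the level was 884 and 781 CPM in the sham and 881 and 822 CPM in the DMM knees, so that the highest library was 1.13 times the lowest. In this sum, opposite changes of single members can cancel. The 15 cartilage markers summed to 6097 and 1711 CPM in the sham and 7061 and 5424 CPM in the DMM knees, with the highest 4.13 times the lowest. Col2a1 alone held 3343 and 726 CPM of it in the sham and 3822 and 2739 CPM in the DMM knees. Of the 15 cartilage markers, 8 passed as higher in DMM knees and 0 as lower. The median log2 fold change of this list was 0.97, with median ratios of 0.26 in M04 and 1.57 in M05. In the fits that leave out the M05 sham or the M04 DMM library, that drop the mouse term or that use FPKM values, 0 genes of any kind passed as higher, so none of these 8 calls held there. The members' median ratios were 0.01 in each mouse. No test of the difference between the lists was made. The markers of other cells were measured beside these: the summed level of 6 macrophage markers was 822 to 879 CPM and that of 5 B-lineage markers 472 to 523 CPM. Of 8 osteoblast markers, 7 were higher in the DMM knee of both mice and 2 passed as higher. The osteoblast markers summed to 1499 and 1811 CPM in the sham and 1868 and 2015 CPM in the DMM knees. In the sham library of M05 this was above the cartilage sum. The 4 osteoclast markers tested all had fold changes above 0, and 0 passed. They summed to 548 and 618 CPM in the sham and 802 and 672 CPM in the DMM knees. All 6 erythroid markers had fold changes below 0, and 4 were lower in both mice, though none passed. The 6 muscle markers summed to 136 and 452 CPM in the sham and 357 and 142 CPM in the DMM knees, higher with DMM in M04 and lower in M05. The 8 granulocyte markers had a median fold change of 0.01, but summed to 41427 and 67894 CPM in the sham and 41175 and 59469 CPM in the DMM knees, higher in M05. How much of each member's RNA came from which cells was not tested.

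**Figure D4:**
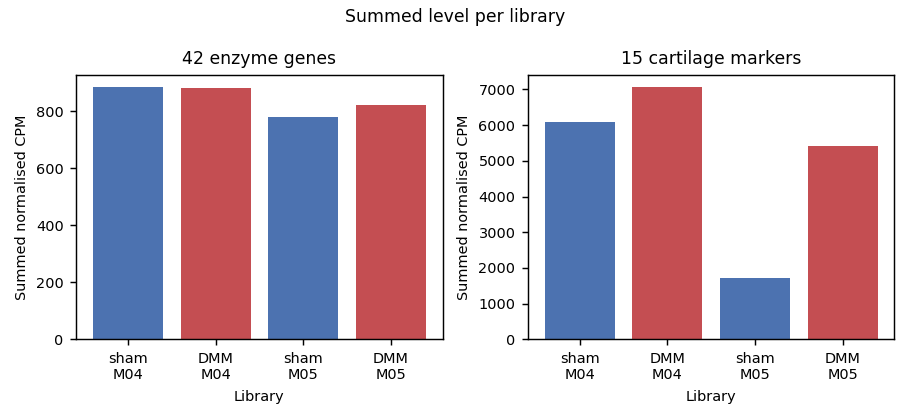
Summed normalised CPM of the 42 enzyme genes (left) and of 15 cartilage markers (right) in each library; bars start at 0, blue is sham and red is DMM. The enzyme sum stays between 781 and 884 CPM, while the cartilage sum runs from 1711 to 7061 CPM.

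The second comparison set M05 against M04 with the surgery in the model. Chst11 was the one member to pass (2.38% of members, against 2.6% of all genes; 1.64% were lower in M05 and 0.962% higher). Its log2 level was lower in M05 (difference -0.62, SE 0.16, adjusted p = 0.0113), and both libraries of M05 (36.9 and 45.9 CPM) were below both of M04 (56.4 and 71.4 CPM). The call was lost in DESeq2 (adjusted p = 0.297), without the surgery term (0.138) and in 3 of the 4 fits that leave out 1 library. Of the 15 cartilage markers, 10 also passed as lower in M05, and the median of the list was -0.95. Their summed level was 6097 (sham) and 7061 CPM (DMM) in M04, and 1711 (sham) and 5424 CPM (DMM) in M05. The sham library of M05 was thus the low one, with the DMM library of M05 nearer to those of M04. The part of these markers in the value of Chst11 was not tested. Without the surgery term, on the FPKM values and without the sham library of M04, 0 genes of any kind passed between the mice, so these 10 calls did not hold there. At an unadjusted p under 0.05 there were 6 members (14.3%, equal to the 14.3% of all genes): Chst11, Hs6st1 (-0.47, adjusted p = 0.0821), Chsy1 (-0.73, adjusted p = 0.101), Papss2 (-0.39, adjusted p = 0.24), Chst3 (-0.48, adjusted p = 0.258) and, as higher, Ugp2 (0.35, adjusted p = 0.303).

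More members lay on the lower side in M05 than on the higher. The fitted difference was below 0 in 30 of 42 members (71.4%, against 50.9% of all genes), with a median of -0.20 beside -0.01 over all genes tested. Both libraries of M05 were below both of M04 in 16 members (38.1%, against 22.8% of all genes), among them Ext1, Sulf2 and Chpf, and above them in 4 (9.52%, against 22.5%), namely B3gat3, Csgalnact1, Chst13 and Ugp2. In the same contrast all 15 cartilage markers were below 0, 2 endothelial markers passed as lower and 2 granulocyte markers as higher, and the median was 0.40 for the granulocyte and 0.35 for the erythroid list. The part of these markers in the members' shift was not tested. The counts describe 2 animals, and the members are not independent of each other.

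The genes around this set were read from the same fit. Among them 1 synthesis gene passed, Chst1, a sulfotransferase for carbon 6 of the galactose in keratan sulfate. Of 7 fibroblast markers, 3 also passed as higher (Col3a1, Dpt and Clec3b), while 2 (Pdgfra and Pi16) were lower in the DMM knee of both mice. The part of this list in the value of Chst1 was not tested. Chst1 had 1.85 and 1.70 CPM in the sham and 6.35 and 5.58 CPM in the DMM libraries. The groups lay far apart, and Chst1 rose, by 1.74 on a log2 scale (SE 0.45) and with an adjusted p of 0.025; the ratio was 1.71 for M04 and 1.64 for M05. Chst5, a related sulfotransferase, had 1.48 and 1.47 CPM in the sham and 5.55 and 4.35 CPM in the DMM libraries, but did not pass (1.73, SE 0.49, adjusted p = 0.0641). Both rest on few counts, 25 to 95 per library for Chst1 and 20 to 83 for Chst5. The call of Chst1 was lost with DESeq2's size factors (adjusted p = 0.0642), in DESeq2 (1.0), without the mouse term (0.803), on the FPKM values and when any of the 4 libraries was left out, while its fold change stayed between 1.65 and 1.83 in these last fits. Of the 7 keratan sulfate genes tested, 1 was higher and 0 were lower, with a median of 0.07.

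The core proteins that carry the chains were tested in 17 of 20 cases, and 3 were higher and 0 lower, with a median of 0.27. Dcn, which encodes decorin, a small proteoglycan with 1 chondroitin or dermatan chain, had 204 and 146 CPM in the sham and 348 and 325 CPM in the DMM libraries, M04 first. Both DMM libraries were above both sham libraries, and Dcn rose by 0.96 (SE 0.15, adjusted p = 5.37e-07). Epyc, a small proteoglycan of cartilage, rose by 1.198 (SE 0.33, adjusted p = 0.0434) and Cspg4 by 0.83 (SE 0.23, adjusted p = 0.0415). Without the sham library of M05 their values were 0.72 for Dcn, 0.81 for Epyc and 0.12 for Cspg4, and none of the 3 passed. All 3 also missed the threshold when either DMM library was left out and without the mouse term, as well as on the FPKM values. Epyc and Cspg4 did so too with DESeq2's size factors, in DESeq2 and without the filter on low counts, while all 3 passed without the sham library of M04. Of the 7 fibroblast markers, 5 were higher in the DMM knee of both mice, among them the 3 that passed, and 2 were lower. All 15 cartilage markers were higher in the DMM knee of both mice. The part of these markers in the values of the 3 core proteins was not tested. The log2 ratios of Cspg4 were 0.37 (M04) and 1.33 (M05), beside medians of 0.26 and 1.57 for the cartilage list and 1.08 and 0.81 for the fibroblast list. Acan, the aggrecan core itself, had 235 and 43.2 CPM in the sham and 281 and 187 CPM in the DMM libraries and did not pass (1.17, SE 0.96, adjusted p = 1.0). Its sham library of M05 was the low one, as for Papss2. The heparan sulfate core perlecan, Hspg2, stood at 0.30 with log2 ratios of -0.14 (M04) and 0.76 (M05).

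**Figure D5:**
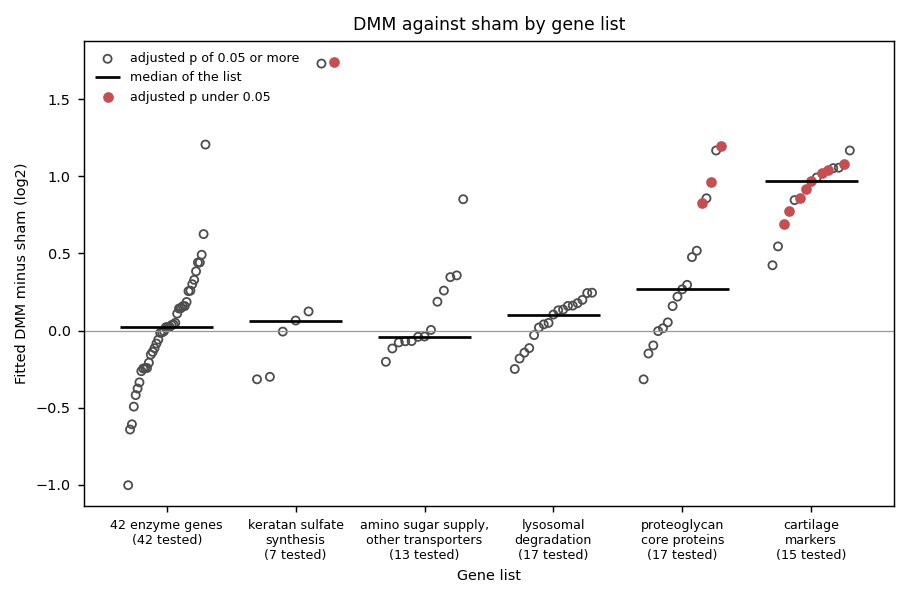
Fitted DMM minus sham difference (log2) of each gene tested in 6 lists, sorted within a list; filled red points have an adjusted p under 0.05 and the bar is the median of the list. Filled are 0 of the 42 enzyme genes, 1 of 7 keratan sulfate genes, 3 of 17 core proteins and 8 of 15 cartilage markers. The share over all genes tested was 0.649%, and without the mouse term 0 of 13103 genes passed.

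The sequence around the start site was read for the members from RefSeq on GRCm38.p6, as 250 bases before and 50 after the start. Of the 42 members, 34 had an entry. For a gene with several entries only the first listed was used. The windows of a gene can differ, as for Papss2, with 27 CG pairs in one entry and 1 in the other. The counts themselves were made on another build, so these coordinates belong to RefSeq only. The windows of the members had a median GC content of 66.3% and a median of 23.5 CG pairs, beside 60.7% and 20 in the 9883 tested genes with an entry. Set against the number expected from the C and G content, CG pairs were not more frequent in the members. The median ratio of observed to expected pairs was 0.719, beside 0.757 in the tested genes. The GC box GGGCGG, searched on both strands, was found in 28 of the 34 (82.4%, against 63.5% of tested genes), CCAAT in 13 (38.2%, against 38.6%) and the TATA box TATAAA in 1 (2.9%, against 7.1%). Each motif was counted on its own, so matches of different motifs may share bases. Extl1, with the largest fold change of the members, had 9 CG pairs and no GC box, as had Chst1, with 1 CG pair. B4galt7, with 8 CG pairs and no GC box, had a fold change of -0.11. Chst11 had 34 CG pairs and Chst12 had 24, with 3 GC boxes each. These 4 windows are shown to set Extl1, the member with the largest fold change, and Chst1, the synthesis gene that passed, beside the 2 sulfotransferases for carbon 4 with the highest levels, in lower case, 5′ to 3′ on the strand of the gene, with GC, CCAAT and TATA boxes of either strand in capitals. Extl1 lies at chr4:134372498-134372797 on the minus strand, Chst1 at chr2:92600867-92601166 (plus), Chst11 at chr10:82985247-82985546 (plus) and Chst12 at chr5:140505359-140505658 (plus).
Extl1: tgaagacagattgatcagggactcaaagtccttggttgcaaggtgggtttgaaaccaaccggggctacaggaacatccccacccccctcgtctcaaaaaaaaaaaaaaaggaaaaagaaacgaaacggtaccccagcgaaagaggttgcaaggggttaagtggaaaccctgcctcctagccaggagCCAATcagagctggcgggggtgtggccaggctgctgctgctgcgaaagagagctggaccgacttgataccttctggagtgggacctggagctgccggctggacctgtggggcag
Chst1: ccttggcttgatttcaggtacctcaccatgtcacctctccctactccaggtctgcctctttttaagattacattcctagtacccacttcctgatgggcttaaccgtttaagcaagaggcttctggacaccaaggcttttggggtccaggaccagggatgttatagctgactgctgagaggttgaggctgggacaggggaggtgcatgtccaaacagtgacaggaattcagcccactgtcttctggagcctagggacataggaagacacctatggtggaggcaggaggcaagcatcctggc
Chst11: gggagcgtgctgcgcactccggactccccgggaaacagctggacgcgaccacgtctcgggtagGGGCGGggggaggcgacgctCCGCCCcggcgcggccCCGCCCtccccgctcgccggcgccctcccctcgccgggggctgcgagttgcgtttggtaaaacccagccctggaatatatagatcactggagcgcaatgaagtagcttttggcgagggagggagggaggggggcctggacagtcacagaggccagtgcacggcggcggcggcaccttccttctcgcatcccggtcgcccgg
Chst12: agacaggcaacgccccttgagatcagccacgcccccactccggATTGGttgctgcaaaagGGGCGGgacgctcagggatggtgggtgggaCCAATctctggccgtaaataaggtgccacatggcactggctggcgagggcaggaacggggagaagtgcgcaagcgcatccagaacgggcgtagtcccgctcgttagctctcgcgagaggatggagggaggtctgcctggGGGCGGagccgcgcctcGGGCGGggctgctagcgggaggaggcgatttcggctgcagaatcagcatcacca
The window of Extl1 holds 1 CCAAT box and that of Chst1 none of the 3 motifs, which says only that these letters are not in the window.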

How the data were processed

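Libraries of poly(A)-enriched, DNase-treated RNA were read from 1 end over 100 bases, per the labels' protocols. The submitters' processing notes name the build GRCm39 (mm39), and the aligner, counting method and strand setting were not given in the sources used here. The deposited count table holds estimated counts, not all whole (6 members have values that are not), and a second column of each library repeats all 24421 values and was left out. The deposited FPKM values were made by the authors per transcript length and depth. Titles and the treatment field gave group and mouse, although the free text of both sham samples speaks of a DMM knee.

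After rounding, counts entered edgeR 4.0.16 (R 4.3.3) with filterByExpr, TMM and a robust quasi-likelihood fit. Mouse and surgery were terms, with Benjamini-Hochberg over 13103 genes and a threshold of 0.05. The method was tested on simulated counts with the same spread for all genes, where well-counted genes changed by surgery or by mouse, not both. Changes in genes with few counts were not covered by it. The SE was taken as |log2 fold change|/√F. For 10879 genes (83%) edgeR set infinite prior degrees of freedom. For these genes the p-values rest on the trend of spread across genes in the 4 libraries, and not on each gene's own spread. Mouse was a block since both knees are of 1 animal, per the labels; deviations of same-mouse libraries correlated at 0.18. Ratios per mouse (log2 CPM, prior count 2) have no test. Alternatives used DESeq2 1.42.0 on the same genes and limma 3.58.1 on log2(FPKM + 1) and log2(FPKM + 0.1). The members and lists were chosen with earlier results of these data known. Of all listed genes, 1 erythroid gene (Ahsp) was not found, and 3 genes were found under an older name. Members given in full had passed a threshold, had the 10 smallest p-values, the 10 highest FPKM or the 4 largest gaps between the mice at a mean of at least 5 CPM.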

Additional observations from a re-analysis of the deposited data

How the results depend on the processing

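Across the 12 alternatives, 0 members passed between DMM and sham knees, also with DESeq2's size factors, without a filter, at a mean of at least 5 CPM (29 members tested) and without robust moderation. The members' median stayed between -0.09 and 0.10. The count over all genes moved from 85 to 35 with DESeq2's size factors, 13 in DESeq2, 0 without the replicate block (the mouse term; 322 at an unadjusted p under 0.05) and 1 with either FPKM pseudocount (1 or 0.1), and it ran from 0 to 121 when 1 library was left out. The 1 member between the mice, Chst11, became 0 members in DESeq2, without the replicate block (the surgery term, here), and with either pseudocount, and 0 to 2 when 1 library was left out. The cause was not tested.

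Among the 18 members given in full, 142 of 142 values under the 8 other settings kept their sign and stayed short of the threshold, as did 59 of 72 when 1 library was left out; these last fits have no mouse term and so hold the mice's own difference too. The 13 that changed sign belong to these ranges: B3gat3 -0.45 to 0.041, Chsy1 -0.88 to 0.11, Csgalnact2 -0.12 to 0.42, Chst11 -0.018 to 0.67, Chst12 -0.0078 to 0.29, Dse -0.055 to 0.64, Ext2 -0.12 to 0.088, Hs6st1 -0.62 to 0.10, Ugdh -0.12 to 0.11 and Ugp2 -0.22 to 0.30. Depth limits Dsel, Chsy3, Slc35d1 and Chst7 most.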

Other observations

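The genes that break the chains down in lysosomes were not among those that passed between the knees: of 17 tested, 0 were higher and 0 were lower by edgeR, 0 had an unadjusted p under 0.05, and the fold changes ran from -0.25 (Arsk) to 0.25 (Hgsnat) with a median of 0.10. Their summed level was 761 and 759 CPM in the sham knees of M04 and M05 and 794 and 822 CPM in the DMM knees. Hexa, a subunit of the hexosaminidases, had the highest level, with 199 to 219 CPM and a fold change of 0.05. Gusb, the glucuronidase, stood at 0.16 and the sulfatase Galns at 0.04.

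Of the 13 genes for amino sugar supply and other transporters, 0 passed by edgeR and 1 had an unadjusted p under 0.05. This was Gfpt2, which makes glucosamine phosphate, with 8.15 and 3.23 CPM in the sham and 8.96 and 10.02 CPM in the DMM libraries, M04 first. Its low library was the sham one of M05, and its fold change was 0.85 (SE 0.32, adjusted p = 0.442); the ratio was 0.13 for M04 and 1.59 for M05. Its paralog Gfpt1 stood at -0.04. Of 11 further heparan sulfotransferases, 3 had enough counts to be tested, namely Hs3st1, Hs3st3a1 and Hs3st3b1, and none passed. The other 8, among them Ndst3, Ndst4 and Hs6st2, were filtered as too low.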
